A study of Mus musculus with 4 samples.

Results

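Layer 4 excitatory neurons of the cerebral cortex were examined in single-nucleus RNA counts from the brains of 2-month-old female mice of the C57/BL6 strain. Layer 4 is the main station at which sensory signals from the thalamus enter the cortex, and its neurons pass them on, largely to the upper layers of the same column. Most of them carry the nuclear receptor gene *Rorb*, which takes part in the clustering of these cells around thalamic axons in the barrels of the somatosensory cortex. *Rspo1* encodes a secreted R-spondin, a protein that strengthens Wnt signalling by keeping Wnt receptors at the cell surface. CSF-1R, the receptor for colony stimulating factor-1, is made in the brain mainly by microglia, which need it to survive.

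Members were chosen by their counts. A kept nucleus had 500 to 50000 unique molecular identifiers (UMIs, each standing for 1 captured transcript), more than 200 genes and under 5% mitochondrial UMIs. A member then had at least 1 UMI of *Slc17a7* (the vesicular glutamate transporter of cortical excitatory neurons), none of *Gad1* or *Gad2* (which make GABA), at least 3 of *Rorb* and at least 1 of *Rspo1*. It also had no UMI of *Syt6*, at most 1 of *Tcf7l2*, at most 3 over *Ccbe1*, *Stard8* and *Tmc1*, and at most 1 of *Scn7a*. Of 52132 kept nuclei, 861 met the rule. Because the rule reads these 11 genes, their levels are a description only and were not tested.

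The study compared *Csf1r+/-* mice (HET), heterozygous for an inactivated *Csf1r* allele in all cells, with wild-type (WT) mice, none of them treated. Nuclei were isolated from brains of perfused mice without detergent and freed of myelin debris. Libraries of 2 mice per genotype were analysed, 1 per mouse, and a further library per genotype was not analysed here. Values for single libraries are given below in the order WT replicate 1, WT replicate 2, HET replicate 1 and HET replicate 2. The 4 files held 112226479, 89727416, 89436507 and 89799327 UMIs, and 16114, 15247, 9589 and 11182 nuclei were kept. Members numbered 225, 158, 264 and 214, with 2330008, 1364260, 3385133 and 2082380 UMIs in all. The median member had 8657, 7588.5, 10650 and 8867.5 UMIs and 2893, 2749.5, 3265.5 and 2928.5 genes. *Csf1r* was read in microglia to check the labels, taken as nuclei with at least 3 UMIs over 7 other microglia markers and none of *Slc17a7*, *Gad1* or *Gad2* (235, 285, 233 and 251 nuclei). Its level, as counts per 1000000 UMIs (CPM), was 220 and 214 in the WT libraries but 154 and 99.4 in those labelled HET, so that both HET libraries lay below both WT libraries as labelled. In members it was near 0, at 0.858, 2.20, 3.55 and 5.76 CPM (2, 3, 12 and 12 UMIs). By depth of members, HET replicate 1 was the deepest library and WT replicate 2 the shallowest, and the means of the medians differed by 1636 UMIs (exact permutation test, two-sided p = 0.333, the smallest p that 2 against 2 libraries allow). Between pairs of libraries, 33 to 68 nucleus barcodes coincided, none of them in 2 members.

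WT replicate 2 stood apart from the other libraries. Its members had a median of 0.397% mitochondrial UMIs, against 0.102% in WT replicate 1, 0.165% in HET replicate 1 and 0.0814% in HET replicate 2. A glial transcript was also higher in its members. Levels are given as CPM of the summed members. *Apoe*, an apolipoprotein made mainly by astrocytes, was at 21.03, 99.7, 21.9 and 16.3 CPM. The metallothionein gene *Mt1* was at 4.72, 41.1, 6.20 and 5.28 CPM. In both genes WT replicate 2 was above the other 3 libraries, which lay close together.

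The layer 4 label was checked against 10 markers. *Rorb* and *Rspo1* are in every member by the rule, and of the other 8 markers 7 were detected in at least 10% of members. *Rora*, the paralog of *Rorb*, was at 2539, 2342, 2215 and 2572 CPM in members and at 1502, 1387, 1445 and 1512 CPM in all other kept nuclei. *Kcnh5*, a voltage-gated potassium channel, was at 904, 662, 775 and 922 CPM, against 270, 200, 276 and 299 CPM in the other nuclei. *Unc5d*, a netrin receptor of upper cortical layers, was at 2629, 2294, 2506 and 3419 CPM, against 1111, 893, 1032 and 1250 CPM. *Cux1*, an upper layer transcription factor, was at 608, 452, 435 and 698 CPM, against 230, 180, 193 and 235 CPM. Each of these 4 genes was higher in members in all 4 libraries. *Scnn1a*, an epithelial sodium channel subunit used to mark layer 4, was nearly absent, at 3.004, 5.86, 4.14 and 0.960 CPM. *Tox*, another gene of the list, was lower in members (181, 191, 127 and 222 CPM) than in the other nuclei (322, 285, 281 and 393 CPM).

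Markers of other neurons were mixed. The layer 6 genes *Osr1* and *Cplx3* and the thalamic gene *Gbx2* were at 0 UMIs in members, and *Syt6*, *Gad1* and *Gad2* were at 0 by the rule. *Otof*, *Mdga1* and *Wfs1*, genes of layer 2/3, did not exceed 11.7 CPM in any library. Others of that list were not low: *Rasgrf2*, a Ras exchange factor, was at 215, 138, 199 and 188 CPM against 169, 126, 158 and 161 CPM in all other nuclei, and the calcium-binding protein gene *Calb1* was at 51.9, 40.3, 38.1 and 55.7 against 41.9, 32.6, 26.5 and 36.6 CPM. Of the 8 layer 2/3 markers, 3 are rule genes. The other 5 summed to 272, 194, 241 and 247 CPM in members, much as in all other nuclei (240.1, 197, 214 and 221 CPM), and to 506, 434, 477 and 577 CPM in the upper layer nuclei described below. *Slc17a6*, the glutamate transporter of thalamic neurons, was nevertheless at 27.0, 33.7, 25.4 and 37.0 CPM, close to its level in all other nuclei (34.6, 37.8, 33.2 and 33.7 CPM), and *Ntng1*, which is strong in the thalamus, was at 197, 189, 193 and 218 CPM, under the 462, 417, 386 and 458 CPM of the other nuclei.

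Members lay well inside the rule for *Rorb* and at its edge for *Rspo1*. Among members *Rorb* had medians of 12, 8, 11 and 11 UMIs per nucleus. *Rspo1* had a median of 1 UMI in each library, and 80.9%, 78.5%, 74.6% and 80.8% of members had exactly that number. Just outside, 1160, 911, 852 and 1042 nuclei met every condition except that *Rspo1* was not seen. These held *Rorb* at 1119, 1003, 855 and 1053 CPM, against 1464, 1234, 1023 and 1399 CPM in members, and *Kcnh5* at 630, 499, 630 and 728 CPM. On the other side, 16, 10, 18 and 14 nuclei had *Rspo1* but only 2 UMIs of *Rorb*. In 4 of 4 libraries the nuclei without *Rspo1* were lower than members in both genes, but well above all other nuclei.

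Members were compared with upper layer nuclei, chosen with at least 4 UMIs over *Ccbe1*, *Stard8* and *Tmc1* and conditions like those of the members for the remaining rule genes other than *Rorb* and *Rspo1* (292, 209, 266 and 303 nuclei). These were deeper, with medians of 13304, 10895, 17917.5 and 13580 UMIs. A smaller set had at least 2 UMIs of *Scn7a*, which encodes a sodium channel relative, met the members' conditions on the rule genes other than *Rorb* and *Rspo1*, and is called *Scn7a* nuclei here (72, 47, 69 and 69 nuclei). Neither set was nearer to members in every layer 4 marker. The mean log2 ratio of members to *Scn7a* nuclei was 0.05 ± 0.13 for *Rora*, 0.40 ± 0.04 for *Kcnh5* and -0.49 ± 0.20 for *Whrn* (SD, n = 4 libraries), and that of members to upper layer nuclei was 1.41 ± 0.10, 1.69 ± 0.20 and 3.16 ± 0.43. For *Cux1* and *Unc5d* it was 2.33 ± 0.16 and 1.31 ± 0.11 over *Scn7a* nuclei but 0.96 ± 0.25 and 0.88 ± 0.13 over upper layer nuclei. Since all these sets were cut from the counts, gene differences between them are a description without a test. Of 7696 genes seen in at least 10% of members and outside the rule, 103 were higher in members by at least 1 on the log2 scale in 4 of 4 libraries, and 74 were lower by as much. Against all other kept nuclei, 64 were higher and 117 lower, and against *Scn7a* nuclei 65 and 60. Of the 103 genes, 20 were also higher by as much than in *Scn7a* nuclei in 4 of 4 libraries.

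The genes highest over upper layer nuclei covered several functions. Among genes of synaptic transmission, *Grik1*, a kainate receptor subunit, was at 284, 271, 303 and 354 CPM in members and 42.9, 30.4, 31.5 and 36.4 CPM in upper layer nuclei. *Cnih3*, an auxiliary protein of AMPA receptors, differed by a mean of 3.16 ± 0.39 on the log2 scale (SD, n = 4 libraries), from 127, 105, 118 and 108 CPM in members to 19.0, 13.5, 10.3 and 9.64 CPM. *Kcnab3*, a potassium channel beta subunit, was low in both, at 14.5 to 17.3 CPM in members and 0.820 to 3.03 CPM in upper layer nuclei. *Whrn*, a scaffold protein known from hair cells, was at 40.3, 46.2, 46.7 and 41.3 CPM, against 4.404, 5.33, 3.43 and 6.35 CPM. In each of the 4 genes the lowest member library lay above the highest upper layer library. *Scn7a* nuclei, however, held *Cnih3* at 146, 123, 133 and 119 CPM and *Whrn* at 56.0, 53.3, 68.7 and 67.0 CPM, above the members in 4 of 4 libraries, whereas *Grik1* was at 77.9, 15.0, 32.6 and 42.6 CPM there.

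Enzymes and matrix proteins were also among the 20 highest. *Pld5*, a member of the phospholipase D family, was at 314, 245, 267 and 317 CPM in members and at 33.6, 22.6, 39.4 and 39.4 CPM in upper layer nuclei. *Cyp39a1*, an oxysterol hydroxylase, was at 28.3, 24.2, 24.5 and 22.6 CPM, against 4.17, 2.05, 2.83 and 3.29 CPM, and *Atp8b1*, a phospholipid flippase, differed by 2.60 ± 0.27. *Fbxo32*, a ubiquitin ligase subunit best known from muscle wasting, differed by 3.32 ± 0.36. *Col8a1*, a short-chain collagen, differed by 3.01 ± 0.75, and *Pamr1*, a secreted protein with protease-like repeats, by 3.35 ± 0.59. *Zmat4*, a zinc finger gene, was by far the most abundant of these, at 1009, 797, 820 and 1123 CPM against 162, 98.0, 139 and 139 CPM. Noncoding or unnamed genes were among them too, led by *1700047F07Rik* at 32.6, 35.9, 36.3 and 35.5 CPM in members and 2.78, 1.23, 2.63 and 2.85 CPM in upper layer nuclei, but at 38.5, 40.0, 53.5 and 35.5 CPM in *Scn7a* nuclei. Of the 20, 12 were higher in members than in *Scn7a* nuclei in 4 of 4 libraries and 4 were lower.

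Over the whole of the other nuclei fewer genes were higher in members than over upper layer nuclei, and more were lower. By the smallest of the 4 library values, the highest were *Gm40331* (a mean log2 difference of 2.34 ± 0.09), *Tspan11*, a tetraspanin (2.14 ± 0.06), and *Gm20752* (2.18 ± 0.10). *Adam33*, a metalloprotease of the ADAM family, was at 74.3, 72.6, 91.9 and 66.8 CPM in members and 14.4, 12.6, 19.2 and 17.1 CPM in the other nuclei. *Gm20752* shows how far libraries can differ in level with the ratio kept: WT replicate 2 held 50.6 CPM in members, against 201, 221 and 165 CPM in the other 3 libraries, and 11.1 CPM in the other nuclei, against 48.2, 49.6 and 33.3 CPM. It was nearly as high in *Scn7a* nuclei (174, 48.3, 216 and 114 CPM), and *Tspan11* was at 22.3, 16.9, 24.8 and 18.7 CPM in members and 11.4, 18.3, 15.2 and 16.2 CPM in *Scn7a* nuclei, higher in members in 3 of 4 libraries. *Adam33* and *Gm40331* were higher in members than in *Scn7a* nuclei by 2.08 ± 0.52 and 2.62 ± 0.80 on the log2 scale. *Grik1* and *Whrn* stood out less against the other nuclei, with mean log2 differences of 0.12 ± 0.29 and 0.93 ± 0.07.

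Low genes in members included the upper layer gene *Otof*, the otoferlin of hair cell synapses, at 1.72, 3.67, 0.295 and 1.44 CPM against 26.7, 43.1, 28.9 and 26.7 CPM in upper layer nuclei. *Grik4*, another kainate receptor subunit, was at 40.8, 44.7, 18.3 and 26.9 CPM against 296, 320, 186 and 187 CPM. *Pkp2*, a desmosome protein, *Cntnap5c*, a contactin-associated protein, and *Luzp2*, a leucine zipper protein, were lower by 3.40 ± 0.12, 3.29 ± 0.31 and 2.87 ± 0.07 on the log2 scale. Of the kainate receptor genes, members thus held more *Grik1* and upper layer nuclei more *Grik4*.

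**Figure D1:**
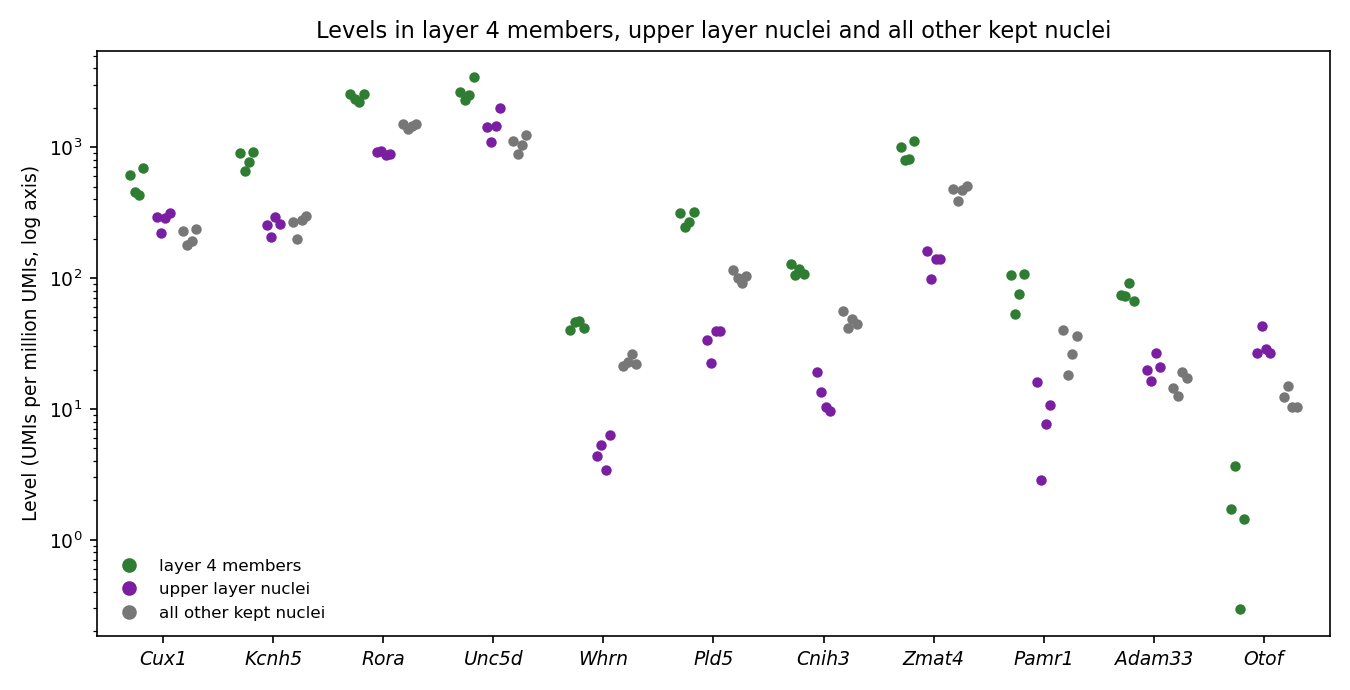
Levels of 11 genes in CPM (log axis) in layer 4 members (green), upper layer nuclei (purple) and all other kept nuclei (grey), each point being 1 of the 4 libraries in the order WT replicates 1 and 2 and HET replicates 1 and 2. *Pld5*, *Cnih3* and *Zmat4* were higher in members than in upper layer nuclei in 4 of 4 libraries, and *Otof* was lower in 4 of 4.

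Members also differed among themselves. Over the 6645 genes that could be ranked, the variance over nuclei beyond that of counting, at each nucleus's depth, had a median of 0.133, 0.128, 0.153 and 0.150 in units of the squared mean. Ordered by the worst of their ranks in the 4 libraries, the most variable genes were *Gm32647* (22.9, 27.8, 18.1 and 12.4), *Tshz2* (9.35, 5.42, 12.9 and 14.3) and *Gm26883* (6.54, 4.78, 14.1 and 14.9). *Foxp2* tied with *Gm26883*, and *Il1rapl2*, *Zfp804b*, *Thsd7b*, *Zfp804a*, *Cep112*, *Gpc5*, *Cdh13* and *Nkain3* followed. *Tshz2* marks neurons of layer 5 and *Foxp2*, a forkhead transcription factor, those of layer 6. Their transcripts sat in few members: 73.5%, 60.6%, 81.8% and 72.5% of *Tshz2* UMIs came from the 12, 8, 14 and 11 nuclei with the most. In WT replicate 1 a single member held 50 of the 310 *Tshz2* UMIs. For *Gm32647* the same nuclei numbers held 81.6%, 85.9%, 84.1% and 77.4% of UMIs. A small number of members with high counts of genes of other layers was thus present in every library.

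No doublet caller was run, since members were chosen by counts of marker genes. Members with 3 or more UMIs over 28 markers of oligodendrocytes, microglia, vessels and interneurons numbered 26, 37, 79 and 33, or 11.6%, 23.4%, 29.9% and 15.4%. Among all kept nuclei the shares were 20.8%, 42.3%, 39.3% and 26.4%, and WT replicate 2 and HET replicate 1 had the highest shares in both.

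The first comparison asked whether the share of members differed between genotypes. Members made up 1.40% and 1.04% of WT nuclei and 2.75% and 1.91% of HET nuclei, so that both HET libraries lay above both WT libraries. The means were 1.22% ± 0.25 and 2.33% ± 0.59 (SD, n = 2 each), a difference of 1.12 percentage points (exact permutation test, two-sided p = 0.333). Of the nuclei with *Slc17a7* and without *Gad1* or *Gad2*, members were 4.26%, 3.14%, 6.34% and 4.27%. Depth moved with this share, since the median kept nucleus had 5490, 4636, 7454 and 6656 UMIs. When each nucleus with at least 3000 UMIs was thinned to 3000 before the rule was applied, leaving out 3618, 4143, 1381 and 1466 shallower nuclei, only 43, 42, 28 and 47 nuclei met it. Their shares were 0.344%, 0.378%, 0.341% and 0.484%, with overlapping genotypes and a difference of 0.0513 points (exact permutation test, two-sided p = 1). Of the same nuclei without thinning, 1.78%, 1.37%, 3.20% and 2.16% were members, a difference of 1.11 points, close to that in all kept nuclei. Other rules were applied without thinning. Without the *Rspo1* condition the shares were 8.60%, 7.01%, 11.6% and 11.2%, a difference of 3.63 points, and with at least 2 or at least 5 UMIs of *Rorb* the differences were 1.19 and 0.962 points, with both HET libraries above both WT libraries under each rule (exact permutation test, two-sided p = 0.333 for each). With 2 libraries a genotype this exact test cannot go below 0.333 at any depth.

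**Figure D2:**
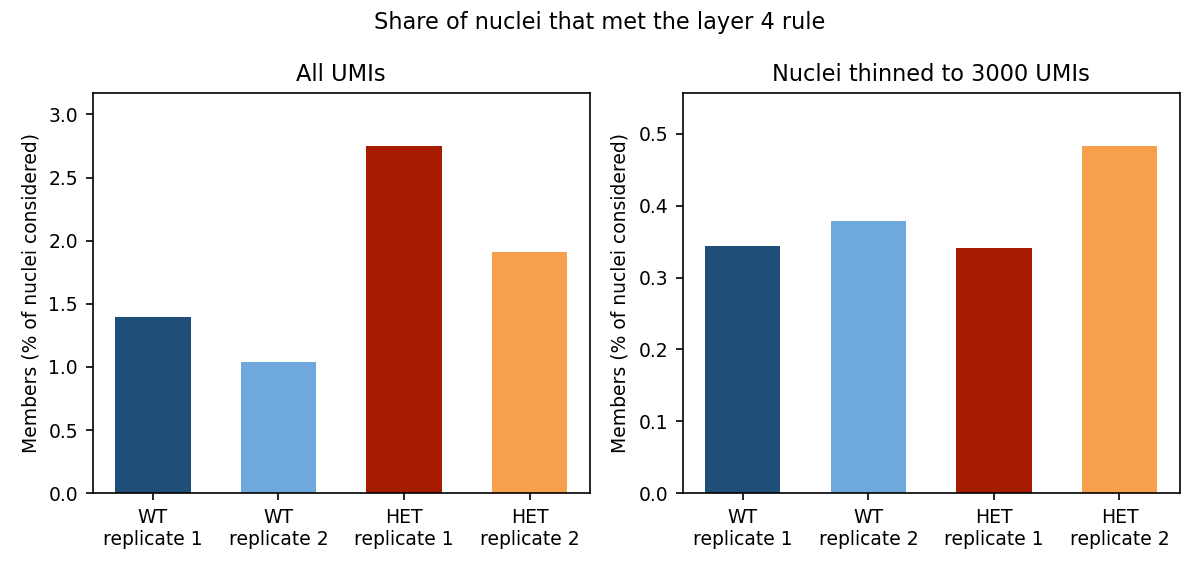
Share of nuclei that met the layer 4 rule in each library, in percent of all kept nuclei (left) and, after thinning, in percent of nuclei with at least 3000 UMIs (right). The bars of both HET libraries exceed both WT bars on the left (2.75% and 1.91% against 1.40% and 1.04%) but not on the right, where HET replicate 1 is the lowest at 0.341%. The 2 axes have different scales.

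The number of genes per nucleus was read in the same way. At 3000 UMIs the median member had 1414, 1495.5, 1428 and 1434.5 genes, with the HET libraries between the WT libraries, whereas without thinning HET replicate 1 had the most genes.

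The second comparison asked which genes differed between HET and WT members. UMIs were summed over the members of each library and tested with edgeR's quasi-likelihood test. A gene needed a UMI in at least 10% of members of either genotype, and 8070 genes were tested. With sums per library, fewer nuclei that express a gene and fewer transcripts per nucleus cannot be told apart. At the study's threshold, an unadjusted p under 0.01, 32 genes (0.397%) were lower and 2 (0.0248%) higher in HET, or 0.421% in either direction. That is below the share which such a threshold passes when no gene differs. In simulated counts 1.12% of unchanged genes passed p 0.01 in this fit. None passed an adjusted p of 0.05 in edgeR, where 208 genes had an unadjusted p under 0.05. DESeq2 gave 1 gene at that adjusted level and edgeR's likelihood-ratio test 5. The median log2 fold change of all tested genes was 0.00. The counts rested on single libraries: without WT replicate 1, 139 were lower and 24 higher, and without WT replicate 2, 25 were lower and 40 higher. Without HET replicate 1 the counts were 19 and 10, and without HET replicate 2, 28 and 15, the lone library being assumed to vary like the others.

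*Thsd7b*, which encodes a thrombospondin repeat protein, had the smallest p. It lies on chromosome 1 (129273302 to 130219278, plus strand, mm10) and was at 98.6 and 101 TMM-scaled CPM in WT and 27.9 and 36.2 in HET members. The log2 fold change was -1.65 ± 0.20 (SE; edgeR, adjusted p = 0.169). Both HET libraries lay far below both WT libraries. The libraries held 218, 140, 91 and 73 *Thsd7b* UMIs, and 59.6% to 70.3% of these came from the 8 to 14 members with the most in each.

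*Erbb4* and *Adarb2* came next, both high in interneurons. *Erbb4*, the neuregulin receptor tyrosine kinase (chromosome 1, 68032186 to 69108059, minus strand), was at 86.8 and 101 TMM-scaled CPM in WT and 30.1 and 41.2 in HET members. Its log2 fold change was -1.41 ± 0.21 (edgeR, adjusted p = 0.267). It was spread more widely than *Thsd7b*, with 31.3% to 54.1% of its UMIs in the top nuclei. *Adarb2*, a member of the RNA-editing deaminase family that marks interneurons of one lineage (chromosome 13, 8202866 to 8768747, plus strand), was at 53.4 and 55.6 in WT and 19.6 and 19.9 in HET members, a log2 fold change of -1.46 ± 0.20 (edgeR, adjusted p = 0.267).

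Interneuron markers were then read as a list. Of 11 interneuron markers, 3 were tested, and *Erbb4* and *Adarb2* were past p 0.01. *Lamp5*, the other one, was at 31.7, 62.1, 34.7 and 37.2. The summed level of the list in members was 170, 235, 84.5 and 98.4 CPM, with *Erbb4* the most abundant, against 2050, 2292, 1807 and 1642 CPM in the other nuclei. Without these 2 called genes the remaining 9 summed to 36.5, 76.2, 36.6 and 39.4 CPM, with WT replicate 1 level with the HET libraries. The defining genes *Slc32a1*, *Dlx1*, *Sst*, *Pvalb* and *Vip* were at or below 2.93 CPM in every library, and *Gad1* and *Gad2* were at 0 by the rule. Without the 175 members that held markers of other types, the log2 fold change was -1.32 for *Erbb4* and -1.80 for *Adarb2*. The part of free RNA in this result was not tested.

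*Ryr3*, *Synpr* and *Dgkb* were also among the 12 lower genes with the smallest p. *Ryr3*, a calcium release channel of the endoplasmic reticulum (chromosome 2, 112631355 to 113217096, minus strand), was at 97.3 and 124 in WT and 49.1 and 42.7 in HET members, a log2 fold change of -1.25 ± 0.19 (edgeR, adjusted p = 0.267). *Synpr*, a synaptic vesicle protein, was at 73.7, 70.8, 40.2 and 27.3. *Dgkb*, a diacylglycerol kinase of the synaptic membrane, was at 203, 259, 136 and 141. The genotypes did not overlap in any of these 3 genes. Of all genes tested, 14.1% were lower in both HET libraries than in both WT libraries and 12.1% were higher.

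The 12 further held *Zfhx3*, *Foxp2*, *Mgat4c*, *Col11a1* and *Adamtsl1*. *Zfhx3*, a large homeodomain factor, was at 20.8, 27.5, 7.06 and 8.94, a log2 fold change of -1.59 ± 0.31. *Foxp2* was at 40.3, 43.4, 19.3 and 22.8, and without members that held markers of other types its log2 fold change was -0.61 and did not pass p 0.01. *Mgat4c*, a glycosyltransferase, fell by 0.74 on the log2 scale, *Col11a1*, a fibrillar collagen, by 1.05, and *Adamtsl1*, a secreted ADAMTS-like protein, by 0.98. *Adamtsl1* was seen in 14.2% and 18.4% of WT but 8.71% and 7.48% of HET members, and also met the filter through WT alone. Over the 15 alternative settings, *Thsd7b* kept its direction in each, from -1.84 to -0.72, and had p under 0.01 in 14. The exception was the rule without the *Rspo1* condition (-0.72), under which *Adarb2* (-0.96) and *Ryr3* (-0.32) did not pass p 0.01 either. *Erbb4* ranged from -1.64 to -0.99, with p under 0.01 in 15 of 15.

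Of the 34 genes, 5 passed p 0.01 whichever library was left out. These were *Thsd7b*, *Adarb2*, *Erbb4*, *Ryr3* and *Synpr*. Without HET replicate 1, *Zfhx3* (-1.40) and *Foxp2* (-0.86) no longer passed, nor did *Mgat4c* (-0.66) without HET replicate 2. *Col11a1* did not pass without WT replicate 1 (-0.95) or HET replicate 1 (-0.92). *Dgkb* and *Adamtsl1* passed only without WT replicate 1, with -0.54 and -0.82 without WT replicate 2, -0.70 and -1.01 without HET replicate 1, and -0.76 and -0.95 without HET replicate 2.

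Both higher genes are antisense to a gene of another name. *4930587E11Rik* (chromosome 6, 102266100 to 102336674, plus strand) lies within *Cntn3* and was at 58.8, 59.3, 92.4 and 205, a log2 fold change of 1.31 ± 0.33. In all other nuclei it was at 44.7, 64.9, 68.7 and 131 CPM, a log2 fold change of 0.91 ± 0.33. In upper layer nuclei the value was 1.04 ± 0.31, and HET replicate 2 was the highest library in each set. Neither value passed p 0.01 in edgeR. *Plxna4os3* (chromosome 6, 32303829 to 32316614, plus strand) lies within *Plxna4*, a semaphorin co-receptor, and was at 17.6, 13.7, 28.8 and 39.7, a log2 fold change of 1.09 ± 0.28. Its log2 fold change was 0.22 ± 0.18 in all other nuclei and -0.01 ± 0.22 in upper layer nuclei. Whether the counting used strand is not given in the sources used here, so transcripts of an antisense gene and its partner may not have been told apart. *Plxna4* itself had a log2 fold change of 0.21 ± 0.19 and *Cntn3* one of 0.22 ± 0.23, and neither passed the test. *Plxna4os3* did not pass p 0.01 without WT replicate 2 (0.95) or HET replicate 2 (0.86), and *4930587E11Rik* did not without WT replicate 1 (1.31) or HET replicate 2 (0.65).

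**Figure D3:**
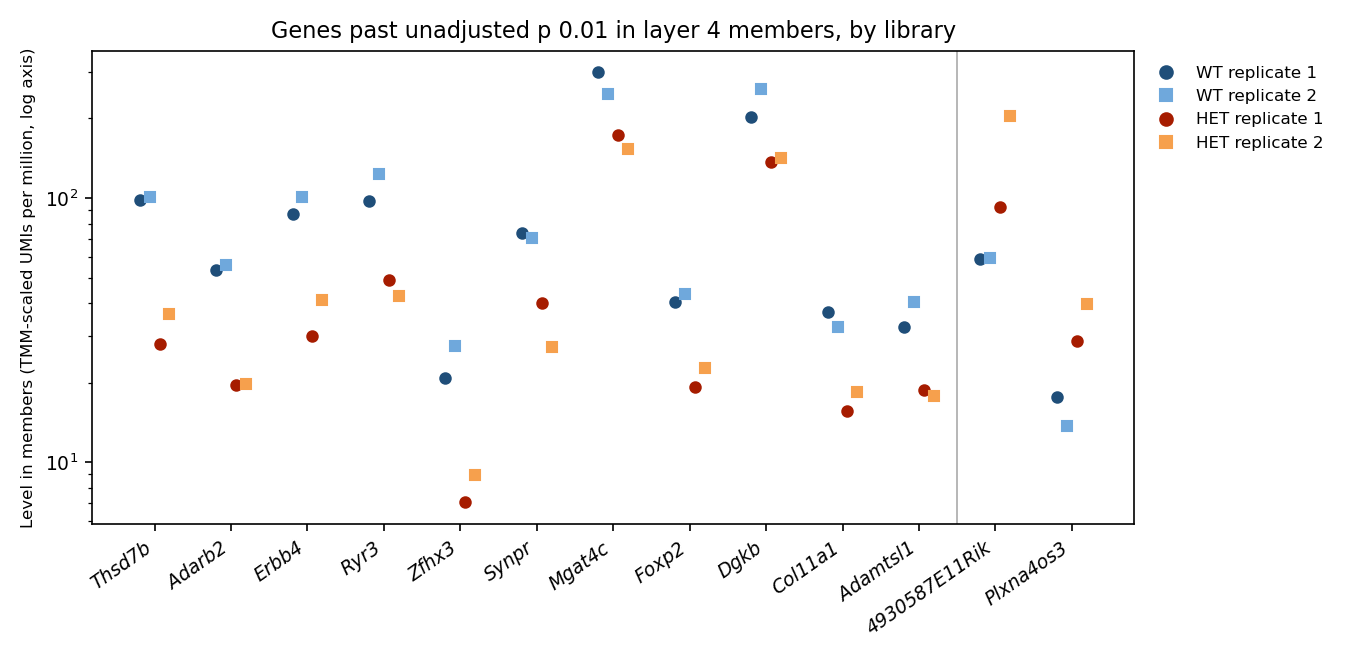
Levels in layer 4 members of 11 of the 12 genes lower in HET with the smallest p and, right of the grey line, the 2 higher genes, in TMM-scaled CPM (log axis), with 1 point per library. In each of the genes shown both HET libraries (red circles, orange squares) lie on the same side of both WT libraries (dark blue circles, light blue squares), as for *Adarb2* at 53.4 and 55.6 against 19.6 and 19.9.

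Most of the lower genes were less abundant in members than elsewhere. Of the 32, 30 (93.8%) were lower in members than in all other nuclei in 4 of 4 libraries, against 40.0% of all tested genes. The median log2 ratio of members to other nuclei was -1.92 for the 32 and -0.13 over all tested genes. Their median log2 fold change of HET over WT was -1.06 in members, -0.54 in upper layer nuclei and -0.17 in all other nuclei, taken from the same libraries. Because the 32 genes were chosen on their values in members, the order of these medians is a description only. The 32 included *Fth1*, the ferritin heavy chain, and *Chchd10*, a mitochondrial protein, which had log2 fold changes of -1.33 ± 0.42 and -0.87 ± 0.43 in the other nuclei, neither past p 0.01 there. *Chchd10* was seen in 10.2% and 10.1% of WT but 6.44% and 3.27% of HET members, and met the 10% filter through WT alone. So did others of the 32, among them *Zfhx3*, *Adamtsl1* and *Rspo2*. In the other nuclei *Fth1* was at 87.6, 225, 68.9 and 51.2 CPM and *Chchd10* at 10.3, 26.8, 11.1 and 8.53 CPM. WT replicate 2 was far above the rest in both, and for *Chchd10* the genotypes overlapped. The level of *Fth1* in members was 58.4, 124, 41.7 and 40.2.

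**Figure D4:**
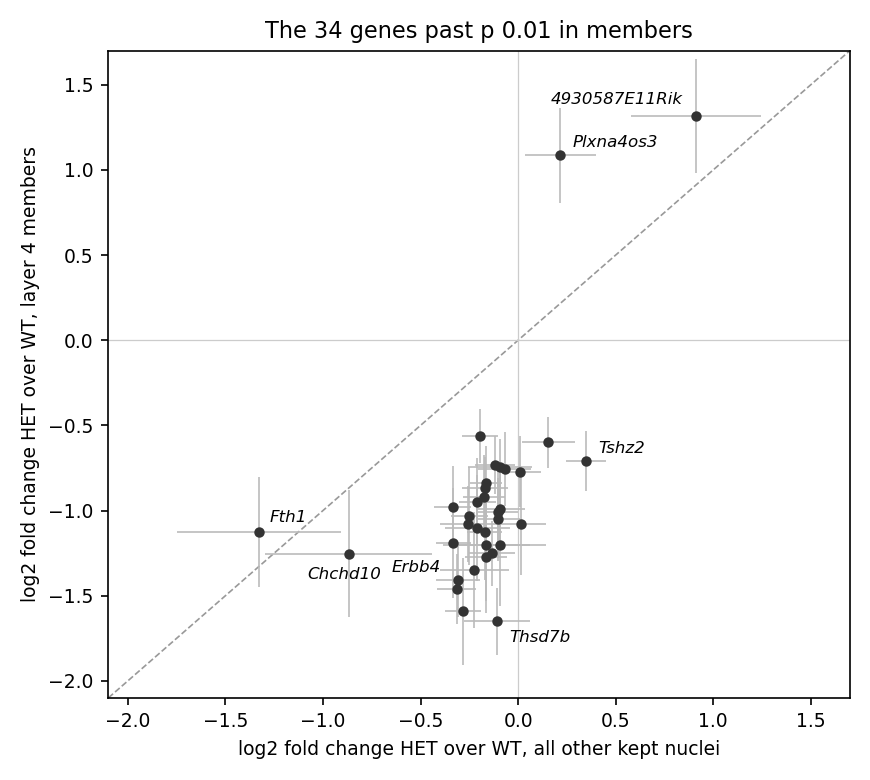
Log2 fold change of HET over WT in all other kept nuclei (horizontal) and in layer 4 members (vertical) for the 34 genes chosen by p under 0.01 in members, with standard errors as grey bars and a dashed line where both are equal. Most lower genes sit near -0.17 on the horizontal and near -1.06 on the vertical axis, while *Fth1* (-1.33, -1.13) lies near the line. Because the genes were chosen on the vertical values, distances from the line are a description.

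Whether the genotype difference in members differed from that in the other nuclei of the same libraries was tested as an interaction, with the library as a block. At p under 0.01, 83 genes (1.03%) differed, 70 (0.867%) with a lower and 13 (0.161%) with a higher HET to WT ratio in members. That share is near the one which a threshold of 0.01 passes when no gene differs. An adjusted p of 0.05 was passed by 5 genes. These were *Thsd7b* (a difference of -1.54 ± 0.18 on the log2 scale, adjusted p = 0.0044), *Adarb2* (-1.15 ± 0.17, adjusted p = 0.015), *Erbb4* (-1.13 ± 0.17, adjusted p = 0.015), *Tshz2* (-1.09 ± 0.15, adjusted p = 0.015) and *Ryr3* (-1.08 ± 0.18, adjusted p = 0.0497), all in edgeR. In the other nuclei *Thsd7b* was at 360, 278, 278 and 303 CPM and *Erbb4* at 1154, 1327, 1019 and 938 CPM. *Tshz2* was at 133, 114, 69.7 and 80.2 CPM in members and 277, 328, 375 and 375 CPM in the other nuclei, so that the genotypes did not overlap in either set and stood in opposite order. Without HET replicate 1, without HET replicate 2 or without the *Rspo1* condition, 0 genes passed the adjusted threshold in edgeR. In these settings 309, 291 and 309 genes had an unadjusted p under 0.05. With all libraries DESeq2 gave 8 genes and the likelihood-ratio test 17, and edgeR gave 8 without WT replicate 1 and 3 without WT replicate 2.

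Against upper layer nuclei, 112 genes (1.39%) differed at p under 0.01, 48 higher and 64 lower, and 7 passed an adjusted p of 0.05. In simulated counts 0.826% of unchanged genes passed p 0.01 in this interaction fit. *Thsd7b* was at 168, 152, 60.8 and 82.1 CPM and *Ryr3* at 406, 338, 189 and 208 CPM in upper layer nuclei, lower in both HET libraries as in members, and their differences of -0.49 ± 0.17 and -0.35 ± 0.21 did not pass the test (adjusted p = 0.762 and adjusted p = 0.936 in edgeR). *Adarb2* was lower in HET in both cell sets, with log2 fold changes of -1.46 ± 0.20 in members and -1.38 ± 0.22 in upper layer nuclei, and a difference of -0.09 ± 0.25 that did not pass the test (adjusted p = 0.997 in edgeR). *Erbb4* was at 57.9, 114, 67.3 and 69.2 CPM in upper layer nuclei, where the genotypes overlapped, and its difference of -1.22 ± 0.23 had an adjusted p of 0.0865 in edgeR. In *Scn7a* nuclei the log2 fold changes were -1.21 ± 0.28 for *Thsd7b* and -1.51 ± 0.45 for *Adarb2*, both past p 0.01 in edgeR, and -0.31 ± 0.37, -0.11 ± 0.18 and -0.22 ± 0.37 for *Erbb4*, *Ryr3* and *Tshz2*, which did not pass. In layer 6 corticothalamic nuclei, chosen with at least 2 UMIs of *Syt6* (243, 292, 289 and 288 nuclei), *Erbb4* was at 166, 161, 74.0 and 112 CPM, so that both HET libraries lay below both WT libraries, with a log2 fold change of -0.78 ± 0.21 that passed p 0.01 in edgeR. The values there were 0.06 ± 0.27 for *Thsd7b*, -0.09 ± 0.16 for *Adarb2*, 0.20 ± 0.20 for *Ryr3* and 0.85 ± 0.31 for *Tshz2*, none past p 0.01. Whether the values in these 2 sets differ from those of the members was not tested. Of the differences from upper layer nuclei, that of *Tshz2* had the smallest p, at -1.30 ± 0.15 (adjusted p = 0.00337 in edgeR), and was at 117, 126, 162 and 194 CPM in upper layer nuclei.

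The 5 genes with a higher HET to WT ratio in members were ones that were lower in HET in upper layer nuclei and did not pass p 0.01 in members. *Hs3st4*, a heparan sulfate sulfotransferase, was at 928, 847, 858 and 785 CPM in members, with a log2 fold change of -0.09 ± 0.16, and at 731, 550, 231 and 281 CPM in upper layer nuclei, with -1.30 ± 0.21. *Zbtb20*, a zinc finger repressor, was at 155, 116, 99.6 and 98.4 CPM in members and 903, 715, 287 and 236 CPM in upper layer nuclei. *Nxph1*, a secreted glycoprotein of neurons, was at 32.2, 29.3, 41.7 and 30.3 CPM in members and 54.7, 31.998, 16.0 and 16.2 CPM in upper layer nuclei, and *Dpf3*, a chromatin reader, at 20.2, 24.2, 18.9 and 20.6 against 57.2, 48.0, 11.1 and 17.7 CPM. The noncoding gene *4930467D21Rik* was at 34.8, 25.7, 47.3 and 40.8 against 19.5, 25.02, 8.08 and 7.01 CPM. *Zfp804b*, a zinc finger gene, had the opposite sign (-1.29 ± 0.18), but its members' levels ran from 103 to 337 CPM within WT. When HET replicate 1 was left out, 0 genes passed the adjusted threshold in edgeR, with 365 at an unadjusted p under 0.05. Without WT replicate 1, WT replicate 2 and HET replicate 2 there were 15, 24 and 28, while DESeq2 gave 4 with all libraries and the likelihood-ratio test 26.

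Genes of the layer 4 identity itself did not pass the test. Of the 10 layer 4 markers, 7 were tested and 0 were past p 0.01, with a median log2 fold change of 0.06. With 1 library left out the median was 0.30 without WT replicate 1, -0.10 without WT replicate 2, 0.25 without HET replicate 1 and 0.00 without HET replicate 2, with 0 genes past p 0.01 each time. *Unc5d* had 0.29 ± 0.21 and *Cux1* 0.11 ± 0.25. *Rorb* and *Rspo1*, shown without a test, were at 1543, 1217, 1063 and 1447 and at 124, 145, 108 and 129 TMM-scaled CPM, with overlapping genotypes. Among 16 genes of the thalamocortical map, which shape the barrels, 15 were tested and 0 passed, with a median of 0.05. After thinning to 3000 UMIs, 14 were tested, the median was -0.12 and 1 gene was lower past p 0.01 in edgeR. *Plcb1*, a phospholipase that acts behind glutamate receptors, had 0.17 ± 0.21, and the ephrin gene *Efna5* 0.16 ± 0.17.

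Among genes of R-spondin and Wnt signalling, 10 of 22 were tested and 1 was lower. This was *Rspo2*, a relative of *Rspo1*, at 33.5, 20.95, 8.90 and 13.4 TMM-scaled CPM, a log2 fold change of -1.35 ± 0.34. It was seen in 9.33% and 11.4% of WT but 4.55% and 8.88% of HET members, and met the 10% filter through WT alone. It did not pass without WT replicate 1 (-0.95) or HET replicate 1 (-1.04). The R-spondin receptor *Lgr4* was at 61.1, 45.5, 41.7 and 45.2. The median of the list was 0.01. Of 16 genes of ROR receptors and the circadian clock, 13 were tested and 0 were past p 0.01. Their median was 0.28, with 10 fold changes above 0 and 2 genes higher at p under 0.05 in edgeR. Of all 8070 genes tested, 4056 had a fold change above 0 and 60 were higher at p under 0.05 in edgeR. The list's median was 0.04 without HET replicate 1 and 0.31 without HET replicate 2. *Cry1*, a clock repressor, was at 11.8, 15.2, 36.2 and 16.4, so that HET replicate 1 stood above the rest, and *Nr1d2*, which competes with ROR receptors for their sites, at 47.9, 62.1, 75.2 and 78.9. Neither passed p 0.01.

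Receptor and channel genes were measured nearly in full. Of 24 glutamate receptor genes, 22 were tested and 2 were lower, among them *Grik4* (medians: -0.10 for the list, 0.00 for all tested genes). *Grik4* was at 43.0, 44.1, 19.0 and 27.8, a log2 fold change of -0.92 ± 0.24, whereas *Grik1* had 0.26 ± 0.16 and did not pass the test. The abundant *Grm7*, a presynaptic receptor, had 0.15 ± 0.21. Of 14 GABA receptor genes, 13 were tested and 1 was lower: *Gabra5*, a subunit of extrasynaptic receptors, at 43.0, 43.4, 23.9 and 26.8 (-0.77 ± 0.21). Of 28 potassium and HCN channel genes, 27 were tested, of 20 sodium and calcium channel genes 18, and of 21 synaptic vesicle and release genes all 21. In these 3 lists 0 genes were past p 0.01 in edgeR, and the medians were 0.03, -0.01 and 0.07. With 1 library left out these medians ran from -0.07 to 0.14, and 1 potassium channel gene, *Kcnn2*, was lower past p 0.01 without HET replicate 2. *Kcnd3*, a potassium channel of the A-type current, had -0.37 ± 0.18, *Cacna1g*, a T-type calcium channel, 0.36 ± 0.27, and the vesicle calcium sensor *Syt1* 0.14 ± 0.23. Of 39 axon guidance and adhesion genes, all were tested and 1 was lower, the ephrin receptor *Epha3* at 56.1, 73.0, 32.8 and 39.2 (-0.84 ± 0.22). None of *Grik4*, *Gabra5* and *Epha3* passed without HET replicate 1 (-0.64, -0.68 and -0.70) or WT replicate 2 (-0.89, -0.76 and -0.64), *Grik4* did not pass without WT replicate 1 (-0.94), and *Gabra5* did not pass whichever library was left out.

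Immediate early genes, which report recent neuronal activity, differed between libraries of 1 genotype. Of 20, 12 were tested and 0 passed, with a median of -0.03 (7 fold changes under 0 and 5 above). The median was 0.80 without WT replicate 1, -0.35 with 3 genes (*Fos*, *Junb* and *Npas4*) lower at p under 0.01 without WT replicate 2, -0.38 without HET replicate 1, and 0.12 with 2 genes (*Egr3* and *Homer1*) higher without HET replicate 2. *Fos* was at 33.9, 5.78, 10.7 and 2.48, so that WT replicate 1 was far above the rest, while *Homer1*, a scaffold gene with an activity-induced short form, was highest in HET replicate 1 at 480, 626, 1014 and 443.

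A list of 6 genes was taken from the study, which names *Mt1*, *Mt3*, *Apoe* and *Aldoc* in neurons and measured *Rpl37* and *Rps29* in brain tissue by PCR. All 6 were tested, and 0 were past p 0.01 with the quasi-likelihood test, against 3 lower with the likelihood-ratio test, which the study used (*Apoe*, *Aldoc* and *Rps29*), and 1 with DESeq2 (*Rps29*). The study picked them with these libraries among its own, so they are no independent evidence of a direction. Their median log2 fold change was -1.42 in members and -1.46 in all other nuclei, where the astrocytes, microglia and other neurons of the same libraries are counted. *Mt1* was at 4.98 and 40.5 in WT and 6.44 and 5.46 in HET members, a log2 fold change of -1.78 ± 0.79. *Mt3*, another metallothionein gene, was at 11.8, 33.2, 11.05 and 9.43, and *Rps29*, a small ribosomal subunit protein, at 21.3, 53.5, 16.9 and 7.45. WT replicate 2 was the highest library for each of the 6. Without it the log2 fold change of *Mt1* was 0.29 and the median of the 6 was -0.26, and without WT replicate 1 the median was -2.03, with 6 of 6 past p 0.01.

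Ribosomal protein genes, in sum, were also highest in WT replicate 2. Of 83, 61 were tested, 58 had a fold change under 0, and 0 were past p 0.01 (18 were lower at p under 0.05). The 58 and the 18 were 95.1% and 29.5% of the list, against 49.7% and 1.83% of all genes tested. Past p 0.01, 7 were lower with the likelihood-ratio test, 2 with DESeq2 (*Rpl13* and *Rps29*) and 3 without members that held markers of other types. *Rpl13* was at 27.1, 66.5, 20.6 and 16.9 and had the smallest p of the list (0.0116). The median was -0.70 in members, -0.72 in all other nuclei and -0.76 in upper layer nuclei, and without WT replicate 2 it was -0.16 in members. Summed over the list, members held 1022, 2314, 1014 and 897 CPM and the other nuclei 1669, 3263, 1608 and 1330 CPM. Nuclear genes of the respiratory chain (49 of 80 tested, 0 past p 0.01) had a median of -0.29, and -0.11 without WT replicate 2. Without WT replicate 1 the medians of these 2 lists were -1.22 and -0.47, with 35 and 4 genes past p 0.01. Of 25 genes of metallothioneins and metal transport, 15 were tested and 1 was lower, *Fth1*. Its log2 fold change of -1.13 ± 0.32 was -1.60 without WT replicate 1. It was -0.50 without WT replicate 2, -1.15 without HET replicate 1 and -1.10 without HET replicate 2, and did not pass in these. The zinc transporter of synaptic vesicles, *Slc30a3*, was at 31.2, 30.3, 41.7 and 41.7. Of 15 integrated stress response genes only *Asns* was tested, with -0.17 ± 0.30.

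The sums of astrocyte and oligodendrocyte markers were highest in WT replicate 2 as well, though not each gene. Astrocyte markers summed to 706, 914, 742 and 728 CPM in members, with 4 of 12 detected in at least 10% of members and *Slc1a2*, a glutamate transporter, the most abundant. Of 6 tested 0 were past p 0.01 (2 lower with the likelihood-ratio test, *Apoe* and *Aldoc*), and the median of -1.19 was -0.15 without WT replicate 2 and -1.81, with 4 genes past p 0.01, without WT replicate 1. The astrocyte genes *Aqp4*, *Gfap* and *Gja1* were at or below 3.67 CPM, and *Gpc5* was highest in WT replicate 1, at 90.6, 47.6, 44.9 and 66.8 CPM. *Apoe*, *Aldoc*, *Mt1* and *Mt3* are in the astrocyte list and also in the list taken from the study, so these lists are not independent. Oligodendrocyte markers summed to 65.2, 215, 139 and 82.6 CPM, led by *Mbp*, a myelin protein gene, at 29.6, 88.0, 99.3 and 42.3 CPM. Microglia markers summed to 45.5, 50.6, 46.1 and 83.1 CPM, led by *P2ry12*, with *C1qb* at 0.858, 0, 0.886 and 0.960 CPM. In each of these lists 2 genes were tested and 0 were past p 0.01. The oligodendrocyte median of -0.28 was 0.81 without WT replicate 2 and -0.97, with 1 gene past p 0.01, without WT replicate 1, and the microglia median of 0.20 was 0.60, with *P2ry12* higher past p 0.01, without HET replicate 1 and -0.26 without HET replicate 2. Precursor markers (11.5 to 17.6 CPM) and vessel markers (1.72 to 5.86 CPM) were near absent and none was tested. Layer 5 markers summed to 182, 203, 120 and 142 CPM and layer 6 markers to 118, 139, 71.5 and 92.7 CPM, higher in both WT libraries. Without *Tshz2* the layer 5 sums were 49.4, 89.4, 50.5 and 62.0 CPM, with overlapping genotypes, and the list's median was 0.05, with fold changes above 0 in the other 2 genes tested. Without *Foxp2* the layer 6 sums were 79.4, 95.3, 52.9 and 70.6 CPM. *Tshz2* of the 3 layer 5 genes tested and *Foxp2* of the 2 layer 6 genes were past p 0.01, though *Tshz2* did not pass without WT replicate 1 (-0.53) or HET replicate 1 (-0.61), and *Tle4* of layer 6 was at 81.4, 92.5, 52.8 and 68.5. Layer 2/3, thalamic and hippocampal markers (2, 2 and 1 tested) had 0 past p 0.01. The part of other cells in the member sums was not tested.

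**Figure D5:**
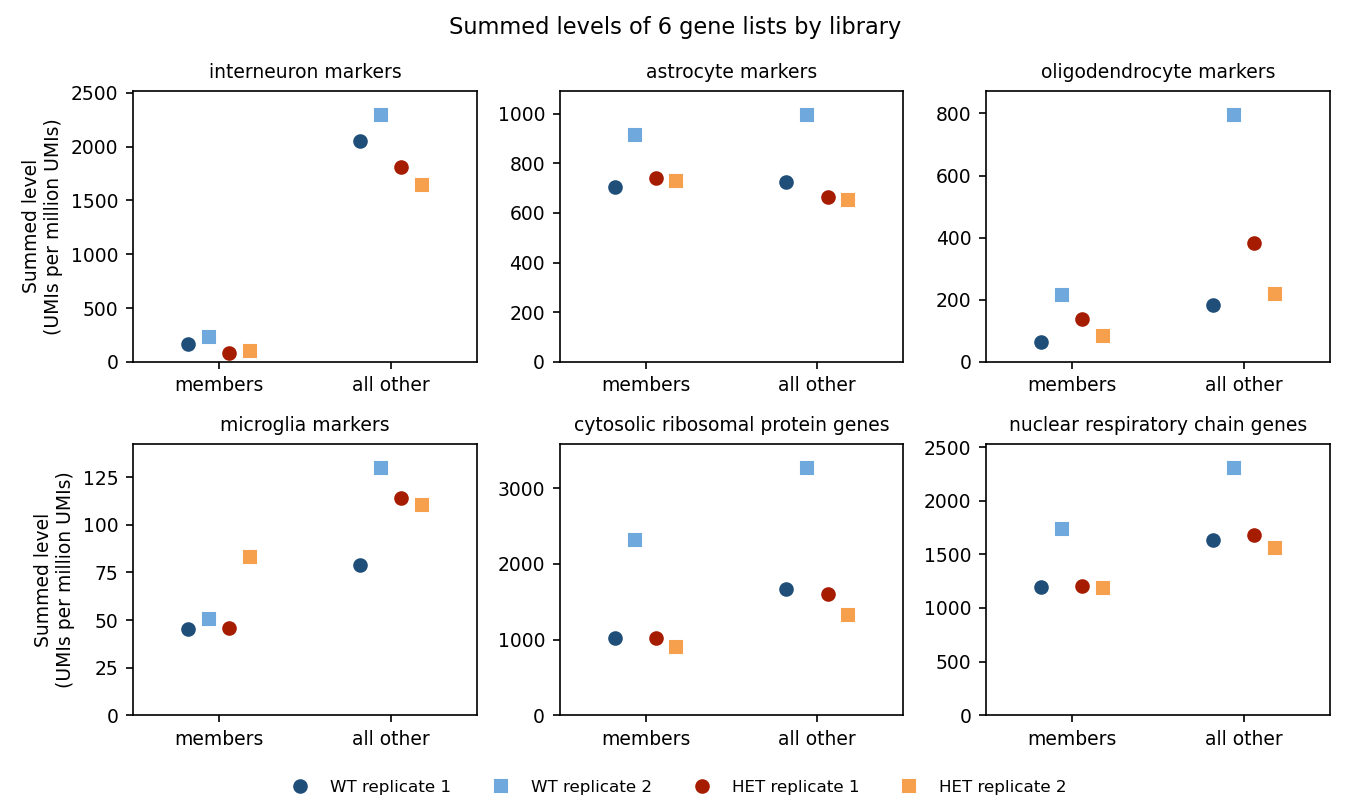
Summed levels of 6 gene lists, in CPM on axes that start at 0, in layer 4 members and in all other kept nuclei, with 1 point per library. WT replicate 2 (light blue squares) is highest for ribosomal protein genes at 2314 in members and 3263 in the other nuclei. Interneuron markers are higher in both WT libraries than in both HET libraries, at 170 and 235 against 84.5 and 98.4 in members, but not in members without *Erbb4* and *Adarb2* (36.5 and 76.2 against 36.6 and 39.4).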

How the data were processed

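Single-nucleus libraries were made on the 10x platform. The deposited UMI counts per gene and nucleus came, per the file headers, from Cell Ranger 5.0.0, and per the labels the build was mm10. The mouse is the replicate. The 4 libraries were labelled WT or HET, with 2 libraries per genotype. Members were chosen by the rule given above, without clustering and without a doublet caller. Members, lists and tests were chosen with earlier results of these data known. Gene positions came from GENCODE M21 (30934 of 31053 identifiers matched).

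Counts were summed per library and tested by the quasi-likelihood method of edgeR 4.0.16 after TMM scaling, with Benjamini-Hochberg adjustment (R 4.3.3), with only the groups compared in each fit. A gene was tested if 10% of members of either genotype held a UMI of it and its counts reached 10 in all. The 11 rule genes were not tested. Genotype effects were compared between members and other nuclei as an interaction with a library term. Shares were compared by exact permutation tests. The count tests were checked on simulated data.

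Alternatives were the likelihood-ratio test, DESeq2 1.42.0, RLE and total scaling, no filter, leaving out each library, a replicate block, thinning to 3000 UMIs, other rules and the removal of nuclei with markers of other types. Genes named were drawn from the 12 with the smallest p in each direction, the 20 highest and 10 lowest against upper layer nuclei, the 10 highest against all other nuclei, the 12 most variable, the rule genes and, for each list, those with the smallest p and the most abundant. *Chchd10*, the low marker genes quoted the genes with an interaction past the adjusted threshold and list genes that passed under an alternative alone were named after their values were seen. Some genes that these rules select are not reported here.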

Additional observations from a re-analysis of the deposited data

Results flagged for a closer look

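In 5 genes the genotype difference in layer 4 members differed from that in all other nuclei of the same libraries by an interaction test in edgeR (adjusted p under 0.05). The differences, in log2 of HET over WT, were -1.54 for *Thsd7b*, -1.15 for *Adarb2*, -1.13 for *Erbb4*, -1.09 for *Tshz2* and -1.08 for *Ryr3*. In 4 of them the log2 fold change in the other nuclei lay between -0.32 and -0.11, and in *Tshz2* it was 0.35. In upper layer nuclei it was -1.13 for *Thsd7b*, -1.38 for *Adarb2* and -0.88 for *Ryr3*, and in nuclei with at least 2 UMIs of *Scn7a* -1.21 for *Thsd7b* and -1.51 for *Adarb2*. Without HET replicate 1, without HET replicate 2 or without the *Rspo1* condition 0 genes passed the adjusted threshold in edgeR, with 309, 291 and 309 at an unadjusted p under 0.05.

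In 7 genes the difference was found against upper layer nuclei by the same test. It was -1.30 for *Tshz2* and -1.29 for *Zfp804b*, and 1.16 for *Zbtb20*, 1.20 for *Hs3st4*, 1.71 for *Nxph1*, 1.78 for *Dpf3* and 2.00 for *4930467D21Rik*. *Tshz2* had a log2 fold change of -0.71 ± 0.18 (SE) in members and 0.59 ± 0.15 in upper layer nuclei. *Zbtb20* had -0.44 ± 0.19 and -1.60 ± 0.20, and *Dpf3* -0.13 ± 0.25 and -1.85 ± 0.26. For both interactions the libraries are the same as those in which the members were tested, so the members' values are not independent of the genotype comparison. Without HET replicate 1, 0 genes passed the adjusted threshold against upper layer nuclei in edgeR, with 365 at an unadjusted p under 0.05. The part of free RNA in these differences was not tested.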

How the results depend on the processing

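Genes higher in HET numbered 2, and 10 with the likelihood-ratio test, 1 with DESeq2, 12 without the detection filter, 4 at *Rorb* of at least 5, 4 without nuclei with markers of other types, and 10 to 40 when 1 library was left out. Genes lower numbered 32, and 62 with the likelihood-ratio test, 16 with DESeq2, 74 without the filter, 6 after thinning (with 4078 genes tested) and 19 to 139 with 1 library left out. An adjusted p under 0.05 was reached by 0 genes, and by 5, 1 and 1 with the likelihood-ratio test, DESeq2 and no filter, and by 0 to 11 with 1 library left out. With a replicate block 9 were higher and 43 lower. The deviations of equally numbered libraries had r = -0.099 over 8074 genes. This single value cannot show whether equally numbered libraries were handled together. The 83 genes of the interaction with other nuclei became 41 with DESeq2, 153 without the filter, 41 after thinning and 50 to 127 with 1 library left out. The 112 of that with upper layer nuclei became 25 with DESeq2, 73 after thinning and 70 to 174 with 1 library left out. The difference in member share was 0.0513 points after thinning and, as a share of excitatory nuclei after thinning, a setting chosen after seeing the data, -0.0147 points. The log2 fold change of *Mt1* ran from -2.73 to 0.29 with 1 library left out, changing sign without WT replicate 2. For the 12 lower and 2 higher genes with the smallest p, 163 of 202 alternative values kept direction and side of p 0.01, 39 kept direction alone and 0 reversed. With 2 libraries a genotype, spread is estimated from 4 values, and a fit with 1 library left out assumes that the lone library varies like the others. The cause of each change was not tested. Values of scarce genes rested on few counts, such as 40 UMIs of *Adarb2* in the HET replicate 2 members.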
